A study of Caenorhabditis elegans with 2 samples.

Results

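The regions described here are the ChIP-seq calls that lie in the chromosome IV piRNA clusters of Caenorhabditis elegans. A call is an interval listed by the authors, and its summit is the base at which they placed its highest enrichment. A call on chromosome IV was a member when its pooled summit lay between 4.5 and 7 Mb (the left cluster) or between 13.5 and 17.2 Mb (the right cluster) of the ce11 assembly. The boundaries use position only and none of the values. There were 1910 members, 466 in the left cluster and 1444 in the right, of 5889 pooled calls on chromosome IV and 30000 in the genome. The other 3979 calls of chromosome IV served for comparison. Of the members, 310 were also in the shorter list that the authors thresholded on reproducibility.

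The study pulled down chromatin with NHR-129, a nuclear hormone receptor, tagged with eGFP. The animals were whole L2 larvae, of both sexes, of strain OP339, whose genotype is unc-119(ed3) III; wgIs339. Its transgene wgIs339 carries the tagged nhr-129 in addition to the gene's own copies, and the antibody is labelled only with the receptor's name. There was 1 group of 2 biological replicates, age was labelled unknown, and an untagged strain was not analysed here. No condition was compared with another, so no test between groups was possible, and calls that arise without NHR-129 could not be told apart from the rest. Whole larvae mix all tissues, so signal from few cells and weak signal from many cells cannot be told apart either.

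PIWI-interacting RNAs of this species, the 21U-RNAs, are made in the germline and bound by the Argonaute PRG-1. They guide silencing of foreign and selfish sequence. Most come from short genes of their own, scattered through introns and intergenic sequence. Their promoters carry an upstream motif with the core GTTTC, often written CTGTTTCA, and are bound by a complex that includes PRDE-1, SNPC-4, TOFU-4 and TOFU-5. In the annotation used, 14204 of 15363 piRNA genes, or 92.5%, started inside the clusters. All 14204 were 21 bases long, and 96.2% began with T. The motif CTGTTTCA stood within 100 bp upstream on the same strand in 5002 of them, or 35.2%, and its first base was most often 46 bp before the start. The shorter GTTTCA was found there in 66.4%.

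Sequences of both kinds of element are given here from the RefSeq genome of the same assembly, because the results turn on how the summits lie relative to the piRNA promoters. The first pair are piRNA genes that have CTGTTTCA at its commonest place and lie nearest to the strongest member of each cluster. Each run holds 60 bases upstream and the 21 bases of the RNA, on the strand of the gene, and the capitals mark the motif. They lie at chrIV:4816833-4816913 (minus strand) and chrIV:14462627-14462707 (minus strand).
21ur-9795: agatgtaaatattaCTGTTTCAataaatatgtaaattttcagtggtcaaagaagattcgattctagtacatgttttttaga
21ur-9432: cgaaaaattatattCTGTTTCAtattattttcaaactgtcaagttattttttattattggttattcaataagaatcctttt

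The second pair are the piRNA genes under the strongest members that had a summit within 100 bp of a piRNA start. Here the capitals mark the RNA itself. They lie at chrIV:5967029-5967109 (plus strand) and chrIV:16181035-16181115 (minus strand). On the strand of the gene, CTGTTTCA was not in the 60 bases upstream of either, and GTTTCA was found upstream of 21ur-5229 only. That GTTTCA lies nearer the start than the commonest place of the motif. Near the commonest place 21ur-5229 has CTGTTTC, which holds the core GTTTC, and 21ur-13200 has CTGTTTTC. Only exact matches were searched, so these genes are not shown to lack the motif.
21ur-5229: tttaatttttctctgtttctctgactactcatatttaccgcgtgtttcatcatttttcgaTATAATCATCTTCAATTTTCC
21ur-13200: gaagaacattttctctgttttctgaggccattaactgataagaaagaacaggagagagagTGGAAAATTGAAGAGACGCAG

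The last set are the 101 bases around the summits of the 2 strongest members of each cluster, on the plus strand, with the summit base in capitals. They lie at chrIV:4750014-4750114, chrIV:6790575-6790675, chrIV:14464228-14464328 and chrIV:14620700-14620800. None of the 4 holds CTGTTTCA on either strand, and GAGAGA was found in the one upstream of vha-8 only. The dmd-6 summit lies in an intron and the other 3 in promoter windows.
rpl-20 summit: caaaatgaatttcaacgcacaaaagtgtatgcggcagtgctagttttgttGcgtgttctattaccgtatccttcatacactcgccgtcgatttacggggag
vha-8 summit: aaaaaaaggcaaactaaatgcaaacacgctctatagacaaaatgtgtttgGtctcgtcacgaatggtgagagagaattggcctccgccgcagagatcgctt
dld-1 summit: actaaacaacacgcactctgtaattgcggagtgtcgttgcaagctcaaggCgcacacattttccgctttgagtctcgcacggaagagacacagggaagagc
dmd-6 summit: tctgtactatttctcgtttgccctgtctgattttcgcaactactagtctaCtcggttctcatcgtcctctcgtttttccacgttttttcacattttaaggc

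The clusters did not behave alike. The left cluster held 186 pooled calls per Mb, fewer than the left arm of the chromosome before it (262 per Mb) and the middle of the chromosome after it (421 per Mb). The right cluster held 390 per Mb. Over the rest of the chromosome the density ratio was 0.529 for the left cluster and 1.11 for the right. Both clusters together held 308 calls per Mb against 352 elsewhere on the chromosome, a ratio of 0.874 (95% exact interval 0.828 to 0.924). The replicate lists gave 0.911 for replicate 1 and 0.875 for replicate 2. Such intervals, here and for the shares that follow, cover counting error only and treat calls as independent, which neighbouring calls are not.

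The shares in the thresholded list also went opposite ways. Of the left members 128, or 27.5% (95% Wilson interval 23.6 to 31.7%), were thresholded, and of the right members 182, or 12.6% (10.99 to 14.4%). The background was 20.5% on the rest of chromosome IV and 22.1% in the genome. The left cluster lay above the rest of the chromosome by 6.99 percentage points (2.92 to 11.4). The right cluster differed from it by −7.88 points (−9.94 to −5.69). Per Mb, however, the clusters held about the same number of thresholded peaks, 51.2 in the left and 49.2 in the right, against 72.2 on the rest of the chromosome. That lower density held against the middle of the chromosome, with 87.7 per Mb, and not against the left arm, with 50.7. The ratio to the left arm was 1.01 (0.807 to 1.26) for the left cluster and 0.971 (0.795 to 1.18) for the right. Averaged over each cluster, the clusters thus differed in their weaker calls. Within the right cluster, weaker calls and thresholded peaks alike were concentrated in a single stretch. That stretch held 147 of the 182 thresholded peaks, or 84 per Mb, against 17.9 per Mb in the remainder of the right cluster.

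**Figure D1:**
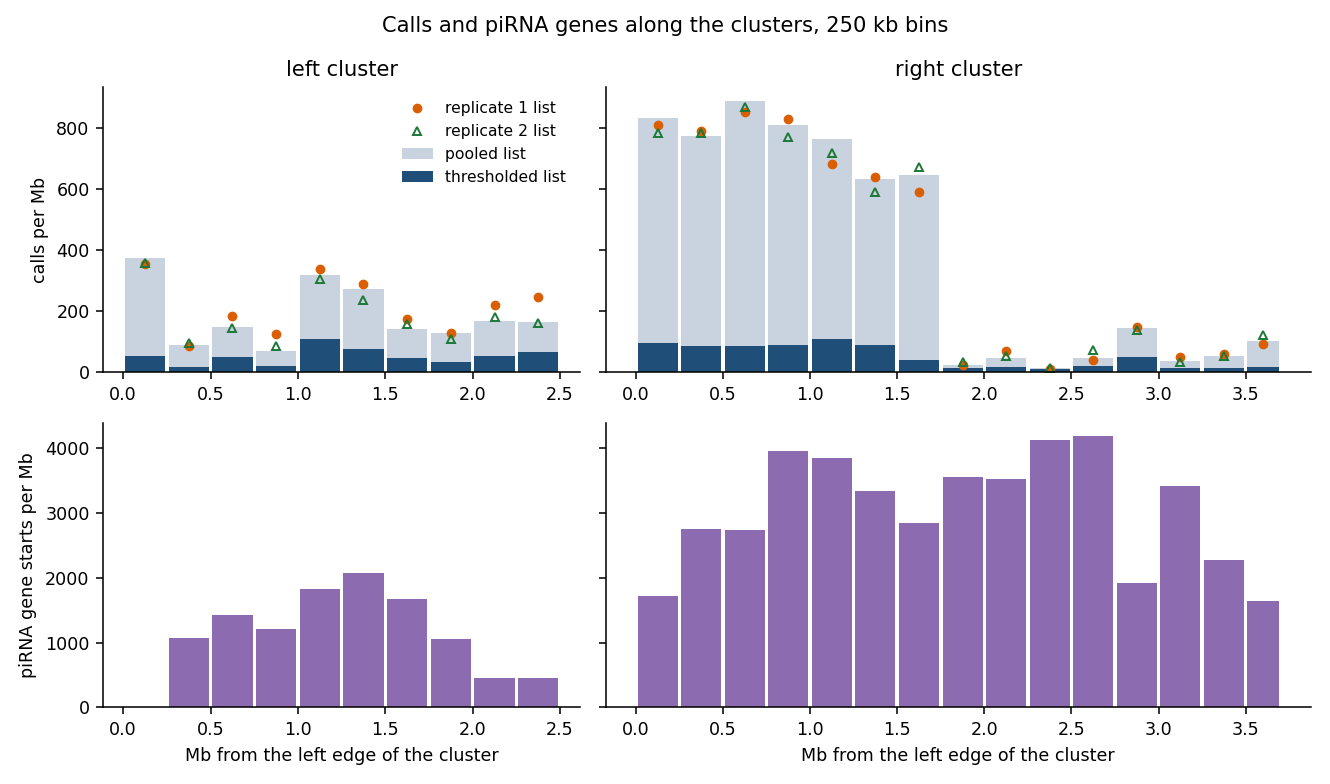
Calls per Mb (upper panels) and piRNA gene starts per Mb (lower panels) in 250 kb bins along each cluster, against the distance in Mb from its left edge; the last bin of the right cluster is shorter. Light bars are the pooled list, dark bars the thresholded list drawn from the same zero line, circles replicate 1 and triangles replicate 2. In the right cluster, pooled density is 644 and then 24 calls per Mb in neighbouring bins, where piRNA genes stand at 2852 and 3564 per Mb.

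The right cluster fell into a dense and a sparse part. From its left edge to 15.25 Mb, a place chosen after the densities had been seen, 1335 calls gave 763 per Mb. Beyond it 109 calls gave 55.9 per Mb. The replicate lists showed the same step, from 741 to 60 per Mb in replicate 1 and from 740 to 62.1 in replicate 2. The density of piRNA genes was alike on both sides, 3031 and 3119 per Mb. Coding genes started at 145 per Mb in the dense part and 106 per Mb in the sparse part, a much smaller difference than that between the calls. In 250 kb bins the dense part ran from 632 to 888 calls per Mb and the sparse part from 12 to 144, so the parts did not overlap.

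The change was abrupt. In the 150 kb before 15.25 Mb there were 83 pooled calls, 71 calls of replicate 1 and 84 of replicate 2. In the 150 kb after it the pooled list and replicate 1 held 0, and replicate 2 held 2. The last summit of the dense part, at position 15234471, was followed by 235.1 kb without a pooled call, a stretch with 855 piRNA starts and 24 coding starts. Of the 83 calls before the step only 1 was thresholded. Thresholded peaks numbered 84 per Mb in the dense part and 17.9 in the sparse part, and their share of the calls was 11.01% in the dense and 32.1% in the sparse part. Thresholded peaks were thus fewer on average in the sparse part. With 1 of them in the 150 kb before 15.25 Mb and 0 in the 150 kb after it, they cannot show whether they change abruptly there. Their 250 kb bins ran from 40 to 108 per Mb in the dense part and from 8 to 48 per Mb in the sparse part. These ranges overlapped only through the bins that begin at 15000000 (40 per Mb) and 16250000 (48 per Mb). The 2 replicates do not allow a test of the step in pooled calls, and its cause was not tested.

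**Figure D2:**
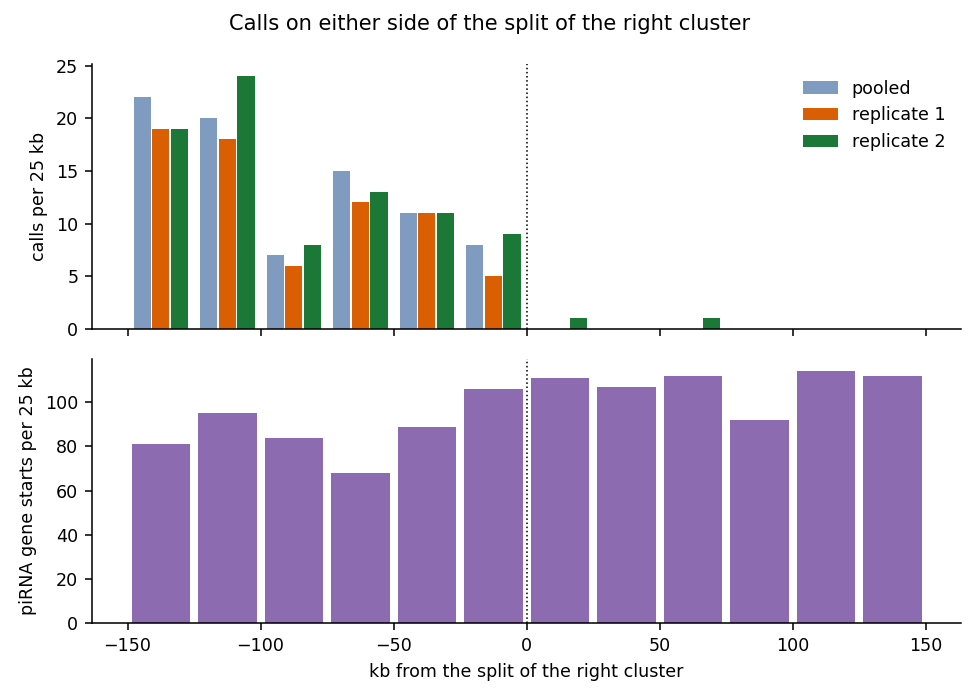
Number of calls (upper panel) and of piRNA gene starts (lower panel) per 25 kb, against the distance in kb from 15.25 Mb, the place at which the right cluster was divided (dotted line). Bars are the pooled list, replicate 1 and replicate 2; before the line they hold 83, 71 and 84 calls, and after it 0, 0 and 2, while the piRNA starts number 523 before and 648 after.

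The dense stretch was not confined to the piRNA cluster. The 500 kb just before the right cluster, from 13 to 13.5 Mb, held 1060 calls per Mb with 11 piRNA starts, and the 500 kb from 12 to 12.5 Mb held 1094 per Mb with 26. Between them the density was 428 per Mb. Of 398 such 250 kb bins in the nuclear genome, with a median of 74 calls and a range of 3 to 278, the 11 with most calls were the 4 just named and the 7 of the dense part. The comparison of the clusters with the rest of the chromosome depended on how this stretch was treated. Without 12 to 13.5 Mb in the rest alone, the density ratio of both clusters was 1.12 (1.06 to 1.19) instead of 0.874. With the whole stretch from 12 to 15.25 Mb left out of both sides, the clusters held 129.2 calls per Mb and the rest 274, a ratio of 0.471 (0.430 to 0.515).

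The sparse part and the left cluster held the longest empty stretches of the chromosome. All of the 10 longest distances between neighbouring pooled summits on chromosome IV lay inside the clusters, 7 in the right and 3 in the left. The longest, 242 kb in the left cluster from 4821170 to 5063436, contained 342 piRNA starts and 56 coding starts. Within it replicates 1 and 2 each had 5 calls. The 10 stretches ran down to 100.4 kb. Such lengths were not particular to the clusters, since chromosome V had a stretch of 238 kb, while the longest on III was 70.2 kb. Of the 25 bins in the genome with fewer than 30 calls, 6 were in the right cluster and 2 in the left.

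In the left cluster and the sparse part, the bins richest in piRNA genes held fewer pooled calls per Mb than the poorest. The dense part showed no clear difference. Bins of 10 kb were sorted by piRNA starts into 4 groups of equal size. In the left cluster these held 314, 132, 117 and 181 calls per Mb from fewest to most piRNA starts. The first group includes most of the first 250 kb, which had 372 calls and 8 piRNA starts per Mb. In the dense part the values were 809, 737, 745 and 777, nearly level. The ratio of the richest group to the poorest was 0.960 (0.824 to 1.12) there. In the sparse part they were 153, 34.7, 24.5 and 10.4, with 75, 17, 12 and 5 calls. In every part coding starts were fewer in the last group than in the first. They stood at 213 and 90.3 per Mb in the left cluster, and at 218 and 88.4 in the dense part. In the sparse part they stood at 167 and 54.2 per Mb. The densities of piRNA and coding genes therefore cannot be told apart in any of these series. Thresholded peaks of the left cluster showed no steady trend, with 60.3, 45.2, 28.6 and 71.0 per Mb, from 38, 28, 18 and 44 peaks. The left cluster gene fkh-7, which holds 78 piRNA starts, alone carried 13 thresholded peaks. Its part in the value of the richest group was not tested. In the dense part thresholded peaks stood at 100, 83.7, 56.8 and 97.7 per Mb, and in the sparse part at 38.8, 12.2, 12.2 and 8.33. Over both clusters the richest group held 355 per Mb and the poorest 328, a ratio of 1.08 (0.956 to 1.22), which mixes parts of very different density.

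The fullest 10 kb of the left cluster, 5650000 to 5659999, held 13 calls and no piRNA start. It covers skn-1, which encodes a transcription factor of the stress response, and reaches into csn-5 and clec-178. The fullest of the right cluster, 13540000 to 13549999, held 15 calls and 4 piRNA starts, at rsd-2, F52G2.3 and Y45F10B.13. Of those 15 calls 1 was thresholded, and of the 13 at skn-1 3 were. These counts are near the thresholded shares of their own parts, 11.01% in the dense part and 27.5% in the left cluster.

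Summits were rarer next to piRNA genes than the ground those genes cover. Of the 1910 summits 378, or 19.8% (18.1 to 21.6%), lay within 100 bp of a piRNA start, whereas 29.8% of cluster bases did. In replicate 1 the share was 20.3% and in replicate 2 it was 19.7%. Among thresholded summits it was 12 of 310, or 3.87% (2.23 to 6.64%), and among the others 22.9%. Each cluster showed the deficit, with 4.51% of summits against 17.0% of bases in the left and 24.7% against 38.5% in the right. In the dense part 26.4% of summits compared with 38.1% of bases, and in the sparse part 4.59% with 38.7%.

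Over all members the deficit was smaller but still present where coding sequence was left out. Coding exons hold 1.57% of the clusters' piRNA starts on 14.4% of bases, and promoter windows hold 10.5% on 15.3% of bases. The count was therefore repeated over introns, intergenic sequence and non-coding exons only, a choice made after the data were seen. There 284 of 1048 summits, or 27.1% (24.5 to 29.9%), were near a piRNA start against 36.3% of such bases. Replicate 1 gave 26.8% and replicate 2 gave 27.1%. Thresholded summits gave 7 of 183, or 3.83% (1.87 to 7.68%), and those below the threshold 32.0% (29.0 to 35.2%). In the dense part the weaker summits came to 39.9% (36.2 to 43.8%) against 44.5% of bases. For the weaker calls of the dense part, then, the difference was small, and for thresholded peaks it was large in each cluster.

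**Figure D3:**
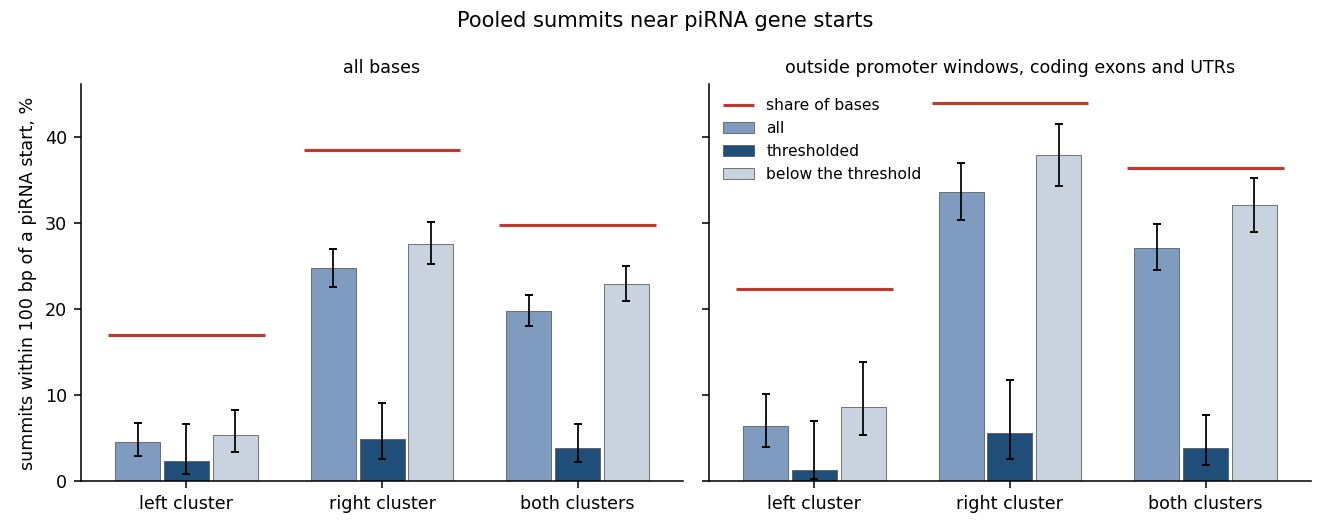
Percentage of pooled summits within 100 bp of a piRNA gene start, by cluster, for all members, thresholded members and members below the threshold, with 95% Wilson intervals; red lines give the percentage of bases that close to a start. The left panel counts all bases and the right panel leaves out coding promoter windows, coding exons and UTRs. Every bar lies under its red line, and the thresholded bars for both clusters are at 3.87% and 3.83%.

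The same hollow appeared in the profile of summits around piRNA starts. From 200 bp upstream to 100 bp downstream, the density of summits was 0.622 times that at 500 to 1000 bp on either side in the pooled list, 0.657 in replicate 1 and 0.616 in replicate 2. For thresholded peaks it was 0.133, from 27 pairs of a summit and a start against 678 in the flanks. The value was 0.120 in the left cluster and 0.137 in the right. Around coding starts of the same clusters the ratio was 4.07 for thresholded peaks and 1.87 for the pooled list. The hollow at piRNA starts and the crest at coding starts therefore lay in the same lists. These windows were chosen with the data in view, and a summit counts once for each start near it, so pairs are not independent. Base composition moved with the position. Windows of 201 bp at piRNA starts had a mean GC content of 27.8%, those at coding starts 35.6%, those at cluster summits 38.4% and those at thresholded cluster summits 43.1%, while all such windows of the clusters averaged 33.0%. Its part in the hollow was not tested.

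**Figure D4:**
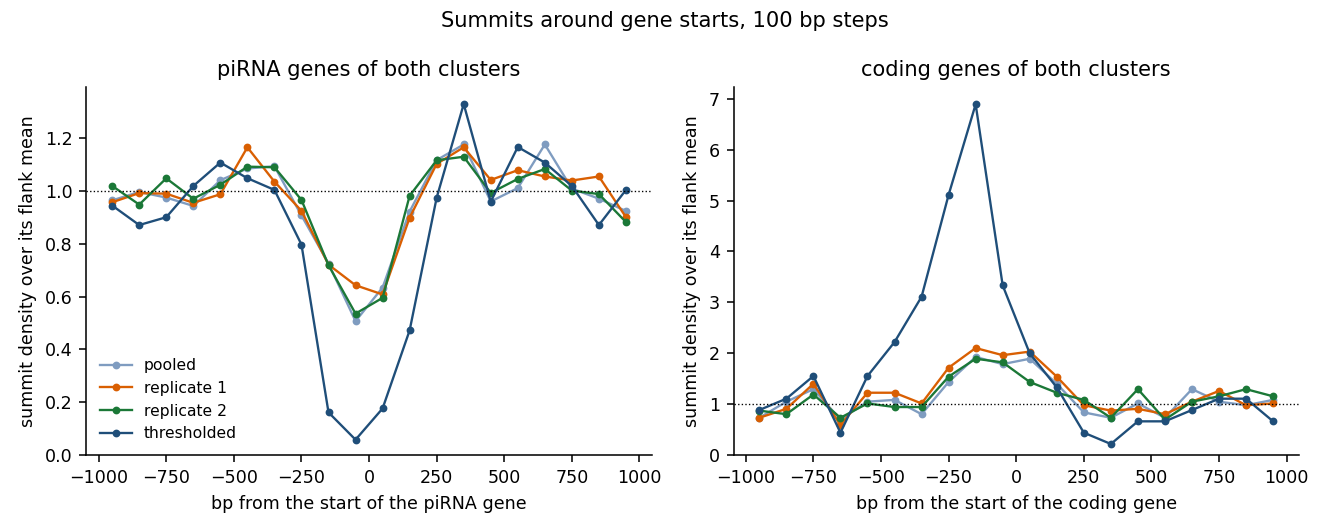
Density of summits in 100 bp steps around the starts of the 14204 piRNA genes (left) and the 941 coding genes (right) of the clusters, divided by the mean density at 500 to 1000 bp on either side; the x axis is the distance in bp, downstream positive, and the vertical scales differ. Lines are the pooled, replicate 1, replicate 2 and thresholded lists. The thresholded line falls to its lowest just upstream of piRNA starts and rises to its highest just upstream of coding starts.

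The piRNA promoter motif was likewise less frequent under summits than around them. CTGTTTCA, on either strand, was found in 181 of the 1910 windows of 201 bp centred on a summit, or 9.48% (8.24 to 10.9%), and in 14.7% of all windows of that length in the clusters. On the rest of the chromosome 1.55% of windows and 0.880% of summit windows held it. Thresholded summits of the clusters held it in 4 of 310 windows, or 1.29% (0.503 to 3.27%). Of the left members 2.36% held it against 9.99% of left windows, and of the right members 11.8% against 17.8%. The shorter GTTTCA, which every CTGTTTCA contains, was in 29.4% of summit windows and 39.3% of all cluster windows.

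Of the other motifs counted, GAGAGA, a repeat common in open promoters of this species, was the most frequent under strong summits. It was in 146 of the 310 thresholded windows, or 47.1% (41.6 to 52.7%), in 14.9% of the weaker ones and in 8.68% of all cluster windows. On the rest of the chromosome 45.5% of thresholded windows and 10.3% of all windows held it. Thresholded peaks inside and outside the clusters thus had GAGAGA at much the same rate. The E-box CACGTG was in 5.45% of member windows against 2.62% of cluster windows. AGGTCA, the half-site of many nuclear receptors, was in 5.65% against 3.91%, and in 7.42% of thresholded windows. On the rest of the chromosome 7.48% of thresholded windows held AGGTCA against 5.04% of all. TGATAA, read by GATA factors, was in 16.6% of member windows and 19.0% of cluster windows, and TAAACA, a forkhead-type core, in 14.7% and 16.9%. No overlap between these motifs was removed, and member windows are richer in GC than the clusters.

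Few strong calls sat on a piRNA gene. The strongest was at 5967026 to 5967170 in the left cluster, 29 bp downstream of the start of 21ur-5229, with a pooled signal of 310 and rank 751 in the genome. Signal is the authors' own value on a scale that is not given. In replicates 1 and 2 the signal was 175 and 130. That summit also lay in the window of the tRNA gene WBGene00022903, from 1000 bp before to 100 bp past its start. The second, 6 bp from the start of 21ur-13200 in the sparse part, had a signal of 257, with 172 in replicate 1 and 84.1 in replicate 2. It was 3572 bp from the nearest coding start, that of Y105C5B.1413, so of the 5 strongest it had the piRNA gene most to itself.

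The other 3 were weaker. A summit 88 bp downstream of the start of 21ur-12729, in an intron of Y37A1A.2, had a signal of 144. One 96 bp downstream of 21ur-4109 had 117 and lay 256 bp upstream of ugt-20, a gene for a UDP-glucuronosyltransferase. The last, 43 bp downstream of 21ur-4340, had 92.01 and lay 539 bp upstream of semo-1. For these last 2 a coding promoter lay over the piRNA gene.

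Thresholded peaks of the clusters favoured coding promoters, though less often than elsewhere on the chromosome. A promoter window reaches from 1000 bp before a coding start to 100 bp past it. It held 100 of the 310 thresholded summits, or 32.3% (27.3 to 37.7%), on 15.3% of cluster bases. On the rest of the chromosome it held 44.3% (40.9 to 47.7%) of thresholded summits on 20.3% of bases. Relative to the share of bases, the excess was therefore of similar size. Introns held 21.6% of thresholded members and intergenic sequence 30.3%, and coding exons 5.81%.

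The weaker members lay elsewhere. Of the 1600 below the threshold, 15.2% (13.6 to 17.1%) were in promoter windows, the same as the share of bases. Coding exons held 28.6% (26.4 to 30.8%) of them on 14.4% of bases, and on the rest of the chromosome 29.7% of weaker calls on 21.4% of bases. In the dense part 29.7% of the weaker calls lay in coding exons and 14.0% in promoter windows. Coding exons are richer in GC than introns in this species. The share of weaker calls in coding exons was thus nearly the same in and outside the clusters, although exons cover less of the clusters.

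Fewer coding genes carried a call in the clusters than elsewhere, and the parts of the right cluster differed again. Of 941 coding genes in the clusters, 301 had a pooled summit in the promoter window, or 32.0%, as had 976 of 2340 on the rest of the chromosome, or 41.7%. In the genome 38.6% of coding genes had one. For thresholded peaks the counts were 122, or 12.96%, and 452, or 19.3%, with 18.2% in the genome. In the dense part 163 of 253 genes (64.4%) had a pooled call and 48 (19.0%) a thresholded one. In the sparse part the counts were 26 and 19 of 206, and in the left cluster 112 and 55 of 482. The dense part thus stood apart in its pooled calls, and its thresholded share was close to the genome's.

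Pseudogenes showed the step most plainly. Of 59 pseudogenes in the dense part 38 had a pooled summit in the same window, but only 2 a thresholded one. Of 64 in the sparse part 1 had a pooled summit and none a thresholded one. On the rest of the chromosome 43 of 206 had a pooled summit.

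Genes for tRNAs were the other main class of marked gene. In the clusters 20 of 41 had a pooled summit in their window and 18 a thresholded one. On the rest of the chromosome 27 and 18 of 30 did. In the sparse part 9 of 23 tRNA genes had a thresholded peak, a larger share than the 19 of 206 coding genes there. Near-identical copies of tRNA genes share reads, so which copy a call belongs to is uncertain. Of 18 small nucleolar RNA genes in the clusters 10 had a pooled and 6 a thresholded summit, against 29 and 22 of 41 on the rest of the chromosome. Of 19 microRNA genes 5 and 2 did, against 19 and 8 of 31. Of 16 small nuclear RNA genes 4 and none did, against 6 and 1 of 25. Pooled summits were thus less frequent than elsewhere for the first 2 classes and about as frequent for the last.

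Of the 20 strongest members, 10 of each cluster, 10 lay in coding promoter windows, 6 in introns, 2 in other exons and 2 in intergenic sequence. In the left cluster the highest pooled signal was 976 (rank 51 in the genome), at 4749924 to 4750206, between Y17G9B.5 and rpl-20, a gene for a protein of the large ribosomal subunit. Its replicate signals were 520 and 449. Next came 732 at the divergent pair vha-8, for a subunit of the vacuolar proton pump, and C17H12.2. The third, at 723, lay between mif-4, for a protein like macrophage migration inhibitory factor, and the lipase-like gene ipla-6. The promoter of tctn-1, which encodes a cilium protein, had 476, with the summit inside cyc-2.1, a cytochrome c gene. W03F8.4 had 359.

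Of the 10 strongest left members 4 lay inside fkh-7, which encodes a forkhead transcription factor, with signals of 582, 541, 496 and 472. The gene, on the plus strand at 5584684 to 5610378, is 25.7 kb long, holds 78 piRNA starts and carried 28 members, 13 of them thresholded. Those 4 summits were 250 to 399 bp from the nearest piRNA start. The Notch pathway transcription factor gene lag-1 had a summit of 361 in an intron and 3 thresholded peaks in all, and skn-1, nhr-46 and tre-2 also had 3 each. nhr-46 encodes another nuclear hormone receptor and tre-2 a trehalase. These counts per gene were made after the values had been seen. fkh-7 had more thresholded peaks than any other coding gene of the clusters.

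In the right cluster the strongest member was 239 bp upstream of dld-1, for dihydrolipoamide dehydrogenase, at 14464096 to 14464458. Its signal was 1414 (rank 18), with 687 in replicate 1 and 730 in replicate 2. An intron of dmd-6, which encodes a protein of the doublesex and mab-3 family, had 926, and dmd-6 carried 4 thresholded peaks. The heterochronic gene lin-66 followed with 792 and ccar-1 with 647. Intergenic summits near prdh-1, for proline dehydrogenase, and eps-8, for an actin regulator, had 632 and 514. The others were an intron of Y57G11C.22 (565), the divergent pair rpl-29 and thoc-7 (531) and dnbp-1 (522). The last was a non-coding exon inside hrpu-1, a gene for an RNA-binding protein (500). All 10 lay in the dense part.

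**Figure D5:**
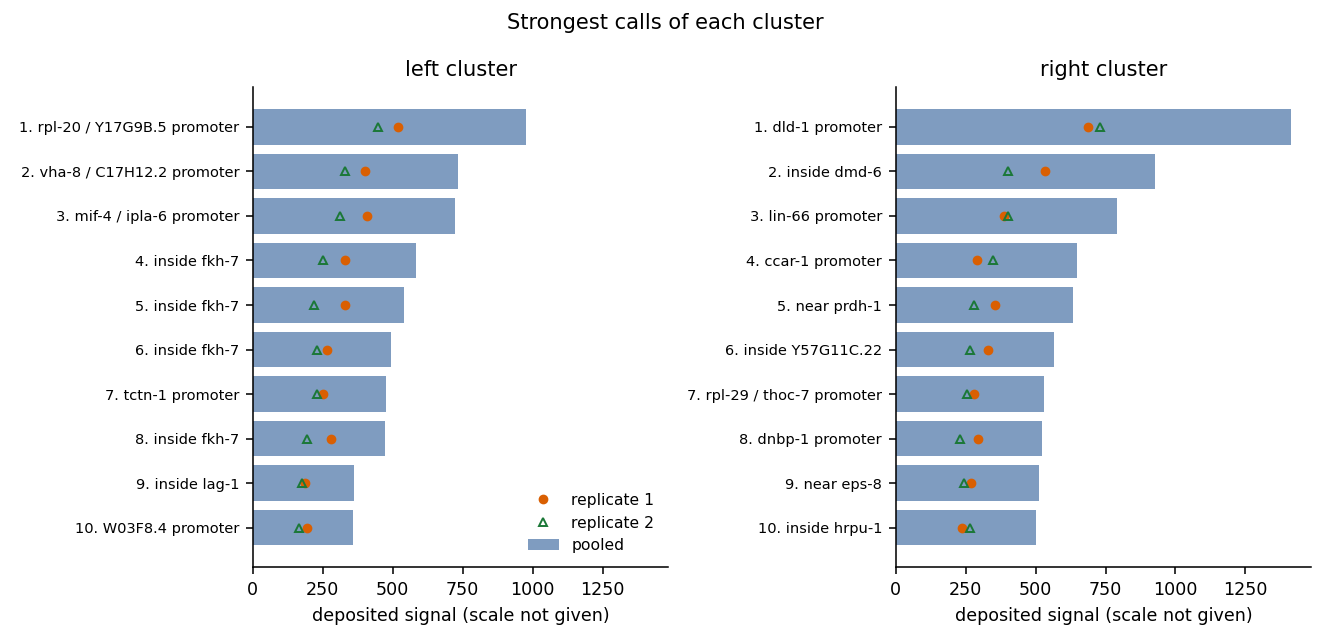
Deposited signal of the 10 strongest calls of each cluster, labelled by the gene whose promoter window holds the summit, the gene around it or the nearest coding start. Bars are the pooled list, circles replicate 1 and triangles replicate 2, whose values stand on their own lists' scales. Signals run from 359 to 976 in the left cluster and from 500 to 1414 in the right.

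The sparse part still held strong peaks. These were looked up after their values had been seen. Its 35 thresholded peaks had a median signal of 163 and a range of 64.6 to 473. Coding promoter windows held 14 of them, tRNA windows 8 (7 of these outside any coding promoter), and 14 lay in neither. The strongest was 117 bp upstream of ntl-11, a gene of the CCR4-NOT complex, with 473. Peaks between set-26 and tsr-2 (301) and at the STAT gene sta-1 (282) were also in promoter windows. Between the starts of rho-1, which encodes a small GTPase, and the bZIP gene zip-7, 6 thresholded peaks stood in intergenic sequence, the highest at 446. The metabolic gene gln-3, for glutamine synthetase, had peaks of 186, 84.6, 76.8 and 64.6 in or just before it.

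Signals of members were spread much as on the rest of the chromosome. The median pooled signal was 28.0 (27.3 to 28.8), with a range of 15.6 to 1414, against 29.3 (28.6 to 30.1) elsewhere on chromosome IV. Thresholded members had a median of 132, against 114. Those below the threshold had 25.3 and 24.9. Most calls, strong or weak, were 370 bp wide. The medians by part were 30.5 in the left cluster, 27.4 in the dense part and 30.6 in the sparse part, so the medians of the dense and sparse parts were close. The sparse part nevertheless had the larger share of strong calls, since 32.1% (24.1 to 41.4%) of its calls were thresholded and 11.01% (9.44 to 12.8%) in the dense part.

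The replicates shared members as often as other calls of the chromosome. Of the 1910 members 1311, or 68.6% (66.5 to 70.7%), overlapped a call of each replicate by at least 1 bp, against 67.2% on the rest of chromosome IV. Of thresholded members 309 of 310 did, and of the others 62.6% (60.2 to 65.0%), against 58.9% elsewhere. The thresholded list was selected on reproducibility, so its near-complete overlap was largely set in advance. Pooled calls come from the reads of both replicates, and where calls are dense a 1 bp overlap can arise by position alone. These shares therefore do not measure independent agreement. Replicate 1 alone overlapped 83.8% of members and replicate 2 81.6%. Over the 1311, signals of the replicates had a Spearman rho of 0.69, given as a description, since these calls share libraries and are not independent. The median log2 difference of replicate 1 over replicate 2 was 0.14 with an SD of 0.59 across calls, each signal being on its own list's scale.

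The members whose rank differed most between the replicates were weak calls. A call in an intron of kcc-2, for a potassium chloride cotransporter, ranked 6497 in replicate 1 and 29350 in replicate 2. Calls at the pair rfth-1 and ZK180.8 and at Y57G11A.4 also ranked higher in replicate 1, and calls in an exon of fcd-2, a DNA repair gene, and an intron of tbc-9 ranked higher in replicate 2. All 5 had pooled signals of 25.4 to 54.6, below the threshold. The median difference in rank was 3192.

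The boundaries ran through weak calls. Nearest inside the left cluster were calls of 17.3 in gbb-2 and 24.5 near prkl-1, and just outside it calls of 20.5 in gbb-2 and 16.6 in cht-3. For the right cluster the values inside were 27.7 in tbc-9 and 28.6 near C52D10.3, and outside 27.8 in tbc-9 and 32.3 near Y116A8B.1. None of these 8 was thresholded. Thresholded peaks lay close by, however, the nearest of them 3.15 kb inside the left edge of the right cluster with a signal of 106, and 13.6 kb inside the left edge of the left cluster with 160. In all, 34 of the 310 thresholded members lay within 200 kb of a boundary.

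Genes that make or use piRNAs lie mostly outside the clusters, and they carried calls about as often as other coding genes. Of 36 listed genes 33 were found by name, 2 of them on chromosome IV. The promoter window held a pooled summit in 15 of the 33, or 45.5%, where 38.6% of all coding genes had one. A thresholded peak lay in 8, or 24.2%, against 18.2%. The replicate lists gave 13 and 19 genes. With 33 genes, these shares are near the background.

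The 8 included factors of several steps. The highest signals were 277 at nrde-2, a nuclear RNA interference factor, with 131 and 148 in the replicates, and 175 at ints-11, for the catalytic subunit of Integrator, with 115.2 and 61.3. Genes of the PETISCO complex, which binds piRNA precursors, followed with 130 at tost-1 and 99.4 at pid-3, while tofu-6 of the same complex had 51.6, below the threshold. No list had a summit in the window of erh-2 or pid-1, which encode its other listed members. The Mutator gene mut-16 had 88.3, tofu-1, which acts in precursor cleavage, 81.9, tofu-5, for a subunit of the piRNA promoter complex, 64.0, and the forkhead gene unc-130 63.7.

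Other core genes had no pooled summit in the window. These were prg-1, prde-1, tofu-4 and snpc-4 among others. For prg-1 the nearest pooled summit was 1091 bp upstream with a signal of 19.9, and for prde-1 it was 5608 bp upstream with 39.3. At snpc-4 the lists differed. Replicates 1 and 2 each had a summit in the window, with signals of 53.9 and 62.5, while the nearest pooled summit lay 512 bp downstream with 29.3. Absence of a call here means only that none was among the 30000 listed.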

How the data were processed

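Calls came from ChIP-seq of 2 biological replicates with library fragments of 150 to 350 bp, per the labels. The authors deposited a relaxed list of 30000 calls for the pooled reads and for each replicate, and a thresholded list of 6626 peaks, in ce11 and ce10. Each call has a signal value set by the authors, a deposited −log10 q-value (not used to order calls) and a summit offset. The sources used here do not give the aligner, caller, versions or read depth, so the depth behind a signal is unknown, and the library of control DNA was not analysed here. The thresholded list equals the pooled calls of highest signal.

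From these files, densities, shares, distances, overlaps (at least 1 bp) and motif counts (summit plus and minus 100 bp) were computed with Python 3.11.15, numpy 2.4.6, pandas 2.3.3 and scipy 1.17.1, using Ensembl release 115 genes and the RefSeq sequence of the same assembly. Shares were set beside the exact share of bases or windows. Intervals are at 95%: Wilson for shares, exact conditional for ratios of counts and ranked values for medians. For differences of shares the Wilson limits of both shares were combined. Each summit had 1 class, with promoter windows taken before exons and UTRs, and those before introns. Functions were tested on simulated data. Named calls were the 10 strongest of each cluster, the 5 strongest within 100 bp of a piRNA start, the fullest 10 kb of each cluster, the calls at the boundaries, the 5 largest rank differences and listed piRNA pathway genes with a promoter call; others are marked in the text. The members, lists and motifs were chosen with earlier results of these data known. Positions are 1-based.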

Additional observations from a re-analysis of the deposited data

How the results depend on the processing

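The alternatives were the ce10 lists, each replicate list alone, merged calls, boundaries moved inward by 200 kb, thresholded peaks only, and other overlaps, distances, windows and bins. The division at 15.25 Mb, the rest of the chromosome without 12 to 13.5 Mb, both sides without 12 to 15.25 Mb, the count over non-coding bases and the profile around starts were added after seeing the data. No paired analysis was possible because there is 1 group and no comparison between groups. Of 54 alternative values, 26 lay within the interval of the main value.

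With thresholded peaks only, the density ratio was 0.693, the share of calls found in both replicates 99.7%, the share near piRNA starts 3.87%, the share in promoter windows 32.3%, the share of windows with CTGTTTCA 1.29%, the ratio of piRNA-rich to piRNA-poor bins 0.653 and the profile ratio at piRNA starts 0.133. The density ratio turned above 1 without 12 to 13.5 Mb in the rest (1.12), for the right cluster alone (1.11) and for its dense part (2.17), and was 0.471 without 12 to 15.25 Mb in the clusters and in the rest, 0.529 for the left cluster and 0.159 for the sparse part. The ratio of piRNA-rich to piRNA-poor bins was 0.575 in the left cluster and 0.763 in the right, which mixes its dense and sparse parts. It was 0.960 in the dense part and 0.0681 in the sparse part. Calls found in both replicates came to 66.2% after merging. They came to 45.8% with summits within 100 bp and 56.4% with an overlap of 50% of the shorter call. The 99.7% among thresholded peaks was largely set in advance, because that list was selected on reproducibility. Shares that follow their own window were 10.2%, 44.5% and 60.2% of summits within 50, 250 and 500 bp of a piRNA start, on 16.8%, 50.1% and 61.9% of bases, and 22.3% with the boundaries moved inward, on 32.4%. They were 27.1% over non-coding bases. Promoter windows from 500 and 2000 bp upstream held 11.9% and 29.0%, on 8.61% and 27.2% of bases. Windows of 50 and 150 bp on each side of the summit held CTGTTTCA in 4.61% and 15.6%, against 7.38% and 20.95% of all such windows. At 500 bp the deficit was small over all members together and absent in the dense part (73.6% of summits, 72.9% of bases). It remained in the left cluster (30.7% and 47.4%), in the sparse part (21.1% and 70.4%) and for thresholded members (48.1% and 61.9%).

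Leaving out a replicate gave density ratios of 0.875 to 0.911, shares near piRNA starts of 19.7 to 20.3%, promoter shares of 17.7 to 19.2%, CTGTTTCA shares of 9.56 to 10.2%, bin ratios of 1.01 to 1.09 and profile ratios of 0.616 to 0.657. Depth is unknown, and lists that end at 30000 calls hide weaker ones.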

Other observations

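The signals of the strongest calls in the pooled list were close to the sum of the replicate signals. Over the 20 strongest members, 10 of each cluster, the pooled value was 0.952 to 1.01 times that sum, with a median of 0.997. For these 20 calls a replicate signal below the pooled one is thus no sign of a weaker replicate. The scale of the signal is not given, so replicate and pooled sizes were not compared further.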
